A study of Mus musculus with 10 samples.

Results

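The genes described here are 10 immediate early transcription factors of the mouse: the AP-1 genes Fos, Fosb, Jun and Junb, the zinc finger genes Egr1, Egr2 and Egr3, and the orphan nuclear receptor genes Nr4a1, Nr4a2 and Nr4a3. They were found by gene symbol among the 19505 genes annotated on the array, and a gene with several probe sets was represented by the probe set with the highest mean. Their probe sets were TC1200000833.mm.2 (Fos), TC0700002477.mm.2 (Fosb), TC0400003079.mm.2 (Jun), TC0800002597.mm.2 (Junb), TC1800000301.mm.2 (Egr1), TC1000000636.mm.2 (Egr2), TSUnmapped00000046.mm.2 (Egr3), TC1500001067.mm.2 (Nr4a1), TC0200003560.mm.2 (Nr4a2) and TC0400000529.mm.2 (Nr4a3). All 10 were among the 13393 genes that passed the filter on low values and were tested. The study introduced CD4+ T cells of C57BL/10 mice that carried either oncogenic Vav1 or GFP into immunocompromised hosts and took spleen and lymph node RNA 6 months later. Vav1 is a guanine nucleotide exchange factor that acts below the T cell receptor. The oncogenic Vav1 groups (genotype WT + Oncogenic Vav1) held 4 spleen and 2 lymph node arrays, and the GFP groups (genotype WT + GFP) held 2 spleen and 2 lymph node arrays. The 10 arrays came from 7 animals, of which 3 gave both tissues. All groups share the wild-type donor background, the transduction and the transfer. The promoter that drives the construct, the number of clones in each transduced population, the ages of the animals and the cells the hosts kept are not given in the sources used here.

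Immediate early genes are switched on within minutes of a signal without new protein synthesis, through factors that are already present in the cell, such as the serum response factor with its ternary complex partners and CREB. In T cells the T cell receptor drives them through calcium and MAP kinases. Fos and Jun proteins pair to form AP-1, which cooperates with NFAT at cytokine genes, Egr2 and Egr3 restrain T cell activation, and Nr4a factors are read as markers of recent receptor signalling and are linked to tolerance and exhaustion. The transcripts are short-lived, and they are also induced when a tissue is dissociated.

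Values were log2 expression values on one scale for all arrays, so that 1 unit is a doubling. Array medians lay between 6.27 and 6.41. Vav1 itself stood at 10.30, 9.99, 10.17 and 10.23 in oncogenic Vav1 spleens, against 9.63 and 9.83 in GFP spleens, and at 10.17 and 9.27 in oncogenic Vav1 lymph nodes, against 9.52 and 9.69 in GFP lymph nodes. Neither difference passed the test (adjusted p = 0.14 in spleen and 0.80 in lymph node). Dropping replicate 1 or 2 of the oncogenic Vav1 lymph nodes, which share the estimate of spread, brought the spleen value to 0.0053 or 0.0049, and dropping replicate 2 brought the lymph node change to 0.56 (adjusted p = 0.016). Whether the probes read the introduced sequence is not known. The labels call every sample CD4+ T cells. The 6 B cell marker genes nevertheless averaged between 9.23 and 11.03 on every array, and the 7 macrophage and monocyte marker genes averaged between 8.54 and 9.93. The samples are therefore called by tissue below. In such bulk RNA, fewer cells of a type and less RNA per cell cannot be told apart. The 2 oncogenic Vav1 lymph node arrays correlated at r = 0.910 over all genes, whereas all other pairs within a group lay between 0.978 and 0.990, so results that rest on these arrays are also given without each of them. Arrays of a group are from different animals, the p-values measure the spread between them, and their small number limits the precision.

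Promoter sequences are shown for Fos, Jun, Junb and Nr4a2. Fos, Jun and Junb passed the test of a difference between the tissues in the change with oncogenic Vav1. Nr4a2 had the largest change in spleen, as described below. Egr1 also passed the test of a difference, but no promoter window was found for Egr1 or Egr3. The windows hold 250 bases before and 50 bases from the annotated start, from RefSeq on GRCm38.p6, read 5′ to 3′ on the gene's strand. Fos lies at chr12:85473640-85473939 on the plus strand. Jun lies at chr4:95052173-95052472, Junb at chr8:84978699-84978998 and Nr4a2 at chr2:57123954-57124253, all on the minus strand. Capitals mark TGACG, which begins the cyclic AMP response element that CREB and ATF proteins bind, TGACNTCA, the full element with any base in the middle, and TATAAA, the letters of a TATA box, on either strand.
Fos: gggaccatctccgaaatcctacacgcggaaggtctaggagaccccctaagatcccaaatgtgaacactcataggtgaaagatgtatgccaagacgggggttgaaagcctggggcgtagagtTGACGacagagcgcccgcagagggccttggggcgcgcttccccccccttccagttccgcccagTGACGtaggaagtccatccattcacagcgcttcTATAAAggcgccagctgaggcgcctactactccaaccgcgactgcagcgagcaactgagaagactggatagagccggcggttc
Jun: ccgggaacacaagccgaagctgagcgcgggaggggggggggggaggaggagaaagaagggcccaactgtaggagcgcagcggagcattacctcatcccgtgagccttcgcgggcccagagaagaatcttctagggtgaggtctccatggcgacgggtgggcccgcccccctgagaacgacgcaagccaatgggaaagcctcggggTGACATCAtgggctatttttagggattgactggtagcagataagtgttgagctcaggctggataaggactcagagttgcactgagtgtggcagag
Junb: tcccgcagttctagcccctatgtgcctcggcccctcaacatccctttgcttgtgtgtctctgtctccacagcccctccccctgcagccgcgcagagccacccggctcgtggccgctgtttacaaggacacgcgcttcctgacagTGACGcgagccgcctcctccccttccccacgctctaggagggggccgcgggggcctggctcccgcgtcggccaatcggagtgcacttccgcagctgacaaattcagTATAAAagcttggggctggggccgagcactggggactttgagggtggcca
Nr4a2: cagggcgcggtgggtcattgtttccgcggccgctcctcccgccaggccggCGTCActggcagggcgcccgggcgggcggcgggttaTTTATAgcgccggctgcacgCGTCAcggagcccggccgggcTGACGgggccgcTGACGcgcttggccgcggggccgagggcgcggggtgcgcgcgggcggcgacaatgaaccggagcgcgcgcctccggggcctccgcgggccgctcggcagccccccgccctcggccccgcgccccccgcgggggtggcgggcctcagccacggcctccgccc
With the start counted as position 0, TGACG began at -129 and -66 in Fos and at -106 in Junb, and Nr4a2 held 4 copies across both strands. Jun held TGACNTCA from -45 to -38 and no TGACG, and TATAAA began at -33 in Fos, at 0 in Junb and, on the opposite strand, at -164 in Nr4a2. Of the 10 genes, 8 had windows in the table, 12 windows in all, and 9 of the 12 held TGACG, as did 20.8% of the 32851 windows of all genes. The full element was in 1 of the 12, that of Jun, and in 8.83% of all windows. TATAAA was in 3 of the 12 and in 13.6% of all windows. The CArG box, which the serum response factor binds, was in 4 of the 12, all of Egr2, and in 1.63% of all windows. Some of the 5 windows of Egr2 overlap, so the same site can be counted more than once. By gene, TGACG was in 7 of the 8 and the CArG box in 1. TGACG and TGACNTCA can overlap where the middle base is G. A match is a description of the letters, not a measured site, and the absence of a match says only that these letters are not in the window.

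**Figure D1:**
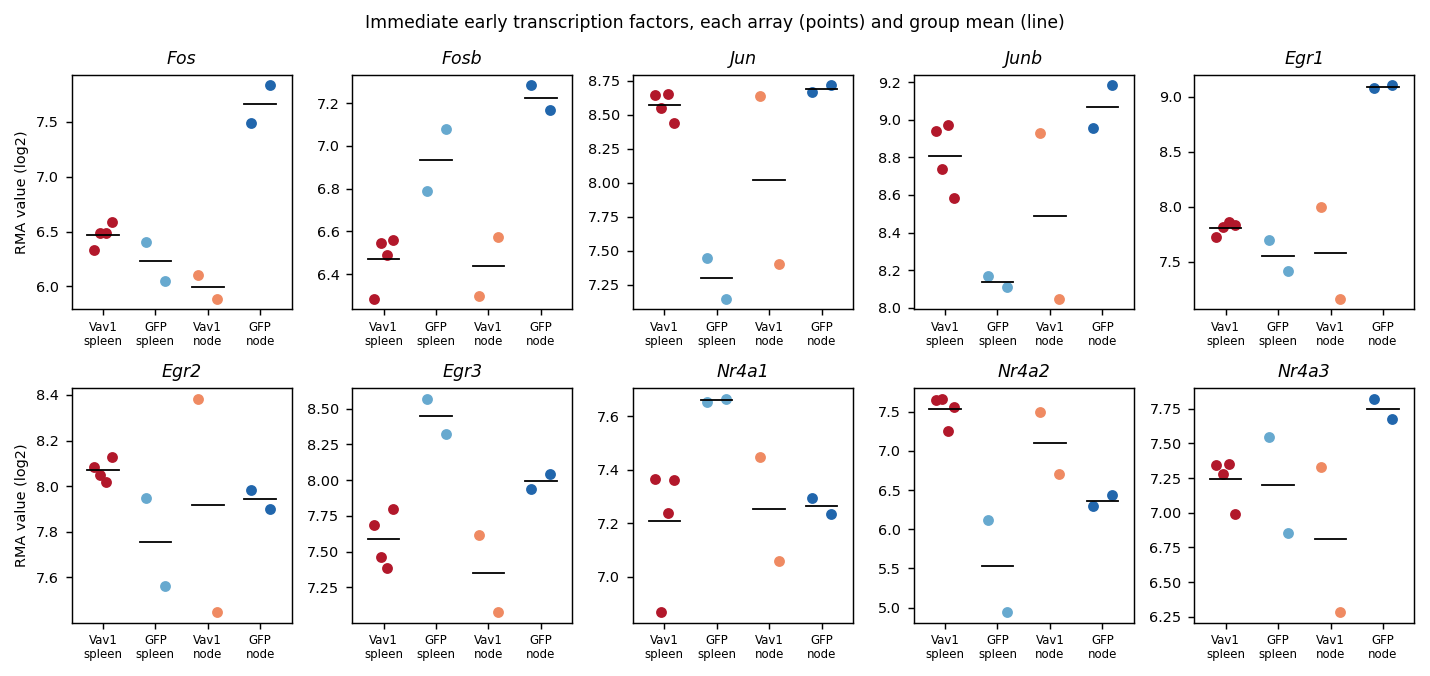
The log2 expression value (vertical axis) of each of the 10 genes on every array, by group, with oncogenic Vav1 left of GFP in each tissue; each point is an array and each line a group mean. GFP lymph nodes stand highest for Fos and Egr1, and GFP spleens lowest for Jun and Nr4a2.

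In spleen, Nr4a2, Jun and Junb were higher with oncogenic Vav1, and Egr3 and Fosb were lower. Nr4a2 was 4.00-fold and Jun 2.42-fold higher, and Egr3 was 1.82-fold lower. Of the 10 genes, 5 passed at an adjusted p under 0.05, where 26.8% of all genes tested did, and of these 3 rose and 2 fell, against 17.1% and 9.77% of all genes. The median change of the 10 was 0.25 log2 units, against 0.0019 over all genes tested. The AP-1 genes were called in both directions, with Jun and Junb higher and Fosb lower.

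Jun, the AP-1 subunit that also pairs with itself, measured 8.65, 8.55, 8.65 and 8.44 in oncogenic Vav1 spleens, against 7.44 and 7.15 in GFP spleens. Every oncogenic Vav1 spleen lay above both GFP spleens. The change was 1.28 log2 units (SE 0.27, adjusted p = 0.0068). Junb, a Jun relative that in T cells takes part in AP-1 complexes with Batf, measured 8.94, 8.74, 8.97 and 8.58 in oncogenic Vav1 spleens, against 8.17 and 8.11 in GFP spleens. Again the groups were apart, and the change was 0.67 (SE 0.22, adjusted p = 0.044). Fosb, a Fos relative, ran the other way, with 6.29, 6.55, 6.49 and 6.56 in oncogenic Vav1 spleens, against 6.79 and 7.08 in GFP spleens. All 4 oncogenic Vav1 spleens lay below both GFP spleens, and the change was -0.46 (SE 0.15, adjusted p = 0.041). Fos, the usual partner of Jun, measured 6.33, 6.48, 6.49 and 6.59 in oncogenic Vav1 spleens, against 6.41 and 6.05 in GFP spleens. These values overlapped, and the change of 0.24 did not pass the test (adjusted p = 0.27, 95% interval -0.11 to 0.60). All the Fos values in spleen were low, between the 44.1 and 54.3 percentiles of their arrays.

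Egr3, a feedback inhibitor of T cell activation, measured 7.69, 7.46, 7.39 and 7.80 in oncogenic Vav1 spleens, against 8.57 and 8.32 in GFP spleens. The groups did not overlap, and the change was -0.86 (SE 0.18, adjusted p = 0.0067). Its relatives did not pass the test. Egr1, the most general early growth response gene, measured 7.73, 7.81, 7.86 and 7.84 in oncogenic Vav1 spleens, against 7.70 and 7.41 in GFP spleens. Egr2, which acts with Egr3 to restrain T cell activation, measured 8.08, 8.05, 8.02 and 8.13 in oncogenic Vav1 spleens, against 7.95 and 7.56 in GFP spleens. For both, every oncogenic Vav1 spleen lay above both GFP spleens by a small margin. Of the 10 genes, 5 lay wholly above and 3 wholly below in this way, against 30.3% and 25.2% of all genes. The changes were 0.26 for Egr1 (adjusted p = 0.35) and 0.31 for Egr2 (adjusted p = 0.30).

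Nr4a2, also called Nurr1, had the largest change of the 10 in spleen. It measured 7.65, 7.67, 7.25 and 7.56 in oncogenic Vav1 spleens, against 6.12 and 4.95 in GFP spleens. The GFP spleens lay well below and were themselves far apart, the lower one under the 40th percentile of its array and under that array's negative control median of 5.69. The change was 2.00 (SE 0.30, adjusted p = 0.0017), with a 95% interval of 1.33 to 2.68. It was 1.42 without GFP spleen replicate 2 and 2.59 without GFP spleen replicate 1. Nr4a1, also called Nur77, the usual reporter of receptor signalling, measured 7.37, 6.87, 7.24 and 7.36 in oncogenic Vav1 spleens, against 7.65 and 7.67 in GFP spleens. All oncogenic Vav1 spleens lay below both GFP spleens, and the change of -0.45 did not pass the test (adjusted p = 0.072). Its adjusted p was 0.026 after quantile normalization, 0.041 under array weights and 0.043 when only the spleen was fitted. Dropping replicate 1 or 2 of the oncogenic Vav1 lymph nodes gave 0.029 or 0.028. Nr4a3 measured 7.34, 7.28, 7.35 and 6.99 in oncogenic Vav1 spleens, against 7.54 and 6.85 in GFP spleens, and the values overlapped (change 0.042, adjusted p = 0.92).

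The spleen calls rest on 2 GFP arrays. Nr4a2 passed on leaving out any of the 10 arrays. Jun lost its call without GFP spleen replicate 2 (1.13, adjusted p = 0.068) and Egr3 without GFP spleen replicate 1 (-0.74, adjusted p = 0.084). Junb and Fosb passed in only 3 and 2 of the 10 such fits, with adjusted p up to 0.18 and 0.26 in the others. Fosb kept its call only when a lymph node array of oncogenic Vav1 was dropped, and Junb in those fits and when oncogenic Vav1 spleen replicate 4 was dropped. The negative control probe sets also moved with the groups: their array medians were 5.43, 5.45, 5.55 and 5.44 in oncogenic Vav1 spleens, against 5.87 and 5.69 in GFP spleens. With that median as a covariate only Egr3 passed, and Nr4a2 stood at 1.78 (adjusted p = 0.063), Jun at 0.61 (adjusted p = 0.30) and Junb at 0.14 (adjusted p = 0.78). Marker genes of other cells moved too. The summed level of the 8 neutrophil markers, of which 8 rose, was 13.04 to 13.30 in oncogenic Vav1 spleens, against 9.47 to 9.65 in GFP spleens, on the log2 scale. The 6 B cell markers, of which 6 fell, summed to 12.38 to 12.85 in oncogenic Vav1 spleens, against 13.71 to 13.80 in GFP spleens. Of the 7 macrophage and monocyte markers 4 rose, and their sum was 13.44 to 13.83 in oncogenic Vav1 spleens, against 12.75 to 12.76 in GFP spleens. Of 8 heat shock genes that can report handling, 5 rose and none fell, and their sum was 12.77 to 13.04 in oncogenic Vav1 spleens, against 12.26 to 12.52 in GFP spleens. The T cell markers, of which 1 of 8 rose, summed to 12.25 to 12.66 in oncogenic Vav1 spleens, against 11.88 to 11.89 in GFP spleens. The part of these cells and of handling in the results was not tested.

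**Figure D2:**
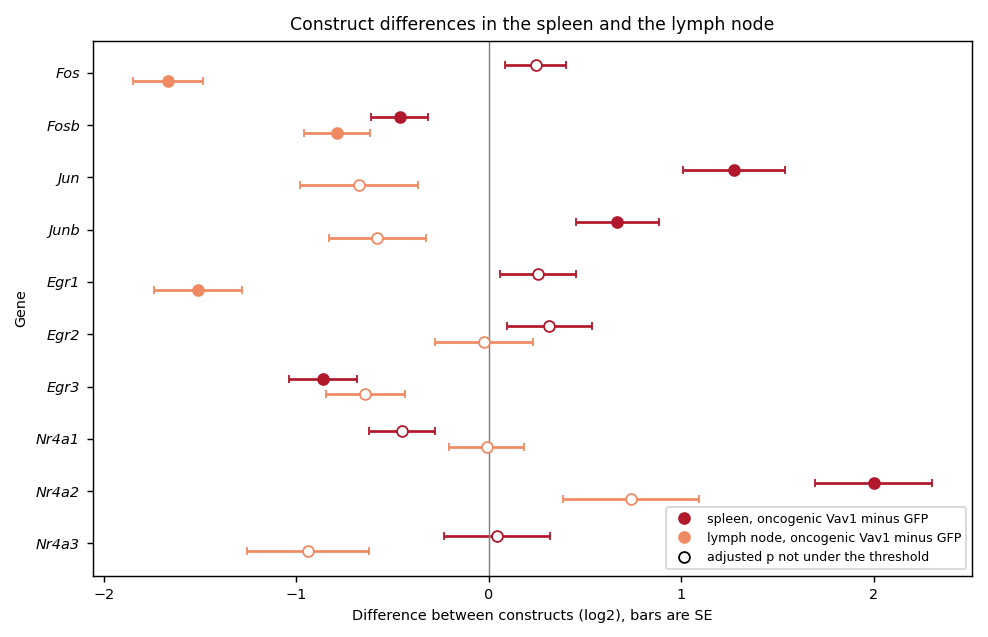
The log2 difference of oncogenic Vav1 minus GFP (horizontal axis) for each gene in spleen and lymph node. Bars are the SE, and filled points have an adjusted p under 0.05. Nr4a2 is highest in spleen at 2.00, and Fos lowest in lymph node at -1.67.

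In lymph node the picture was different: Fos, Egr1 and Fosb were lower with oncogenic Vav1, and none of the 10 was higher at an adjusted p under 0.05. Fos was 3.18-fold lower and Egr1 2.85-fold lower. Thus 3 of the 10 passed and all 3 fell, where 18.7% of all genes tested passed, 7.87% rising and 10.8% falling. The median change of the 10 was -0.66 log2 units, against -0.015 over all genes tested.

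Fos measured 6.10 and 5.89 in oncogenic Vav1 lymph nodes, against 7.49 and 7.83 in GFP lymph nodes. Both oncogenic Vav1 arrays were well below both GFP arrays, and the change was -1.67 (SE 0.18, adjusted p = 0.00021). The oncogenic Vav1 values were low, at the 46.8 and 42.8 percentiles of their arrays, against 68.7 and 73.6 for GFP. Fosb measured 6.30 and 6.58 in oncogenic Vav1 lymph nodes, against 7.28 and 7.17 in GFP lymph nodes, and fell by 0.79 (SE 0.17, adjusted p = 0.0097). Without GFP lymph node replicate 1 the Fosb change was -0.73 with an adjusted p of 0.081. Egr1 measured 8.00 and 7.17 in oncogenic Vav1 lymph nodes, against 9.08 and 9.11 in GFP lymph nodes. The GFP arrays nearly coincided and the oncogenic Vav1 arrays were apart from each other, yet both lay below, and the change was -1.51 (SE 0.23, adjusted p = 0.0014). Fos and Egr1 passed on leaving out any of the 10 arrays. With lymph node arrays alone, only Fos kept its call, Egr1 having an adjusted p of 0.085 and Fosb of 0.11. With array weights Fosb had an adjusted p of 0.083.

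Jun and Junb split the oncogenic Vav1 lymph nodes. Jun measured 8.64 and 7.40 there, against 8.67 and 8.72 in GFP lymph nodes. Junb measured 8.93 and 8.05 in oncogenic Vav1 lymph nodes, against 8.95 and 9.18 in GFP lymph nodes. In both genes replicate 1 sat just under the GFP arrays and replicate 2 far below, and neither change passed the test (adjusted p = 0.16 and 0.14). Egr2 showed the same split, with 8.38 and 7.45 in oncogenic Vav1 lymph nodes, against 7.99 and 7.90 in GFP lymph nodes, which lay between. Egr3 measured 7.62 and 7.08 in oncogenic Vav1 lymph nodes, against 7.94 and 8.04 in GFP lymph nodes, and its change of -0.64 fell short of the threshold (adjusted p = 0.054).

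Nr4a2 measured 7.50 and 6.71 in oncogenic Vav1 lymph nodes, against 6.29 and 6.44 in GFP lymph nodes. Both oncogenic Vav1 arrays lay above both GFP arrays, and the change of 0.74 did not pass the test (adjusted p = 0.18, 95% interval -0.041 to 1.52). Nr4a3, which acts redundantly with Nr4a1 in T cells, measured 7.33 and 6.29 in oncogenic Vav1 lymph nodes, against 7.82 and 7.68 in GFP lymph nodes (change -0.94, adjusted p = 0.064). Nr4a1 measured 7.45 and 7.06 in oncogenic Vav1 lymph nodes, against 7.29 and 7.23 in GFP lymph nodes, and these overlapped (change -0.011, adjusted p = 0.98). Over the 10 genes the oncogenic Vav1 lymph nodes lay wholly above the GFP lymph nodes for 1 and wholly below for 7, against 24.2% and 28.8% of all genes.

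Replicate 2 of the oncogenic Vav1 lymph nodes was lower than replicate 1 for 9 of the 10 genes, all but Fosb, with a median gap of -0.81 against -0.074 over all genes tested. Without replicate 1, 4650 of the 13393 genes tested passed, against 2500 with all arrays, and 8 of the 10 genes passed as lower, among them Jun (-1.29, adjusted p = 7.1e-05), Junb (-1.02, adjusted p = 0.00068), Egr3 (-0.91, adjusted p = 0.0029), Nr4a3 (-1.46, adjusted p = 0.00062) and Egr2 (-0.49, adjusted p = 0.045). Without replicate 2, 2882 of all genes passed, and 4 of the 10: Fos, Fosb and Egr1 as lower and Nr4a2 as higher (1.13, adjusted p = 0.034). The 8 T cell markers summed to 12.34 in replicate 1 and 11.15 in replicate 2, and the 6 erythroid markers to 12.24 and 14.26, on the log2 scale.

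Whether the construct acted differently in the tissues was tested directly, as the change in lymph node minus the change in spleen. Fos, Egr1, Jun and Junb had a more negative change in lymph node, and none of the 10 a more positive one. That is 4 of 10, where 8.04% of all genes tested passed, 7.11% in this direction and 0.933% in the other. The difference was -1.91 for Fos (SE 0.25, adjusted p = 0.0015), -1.77 for Egr1 (SE 0.31, adjusted p = 0.0070), -1.95 for Jun (SE 0.42, adjusted p = 0.017) and -1.24 for Junb (SE 0.34, adjusted p = 0.049). Fos and Egr1 passed on leaving out any array. Jun lost its call without GFP spleen replicate 2 (adjusted p = 0.084), GFP lymph node replicate 1 (adjusted p = 0.079) or GFP lymph node replicate 2 (adjusted p = 0.072). Junb passed in 3 of the 10 such fits, with adjusted p up to 0.17 in the others, and stood at -0.80 without oncogenic Vav1 lymph node replicate 2. Without oncogenic Vav1 lymph node replicate 1, 7 of the 10 genes passed and 4201 of all genes, and without replicate 2, 4 of the 10 and 2204 of all, against 1077 with all arrays. With the negative control median as a covariate Fos and Egr1 kept their calls, and Jun stood at -1.19 (adjusted p = 0.096) and Junb at -0.72 (adjusted p = 0.22). For the other 6 genes the difference did not pass: Nr4a2 stood at -1.30 (adjusted p = 0.13), Nr4a3 at -0.997 (adjusted p = 0.18), Egr2 at -0.36 (adjusted p = 0.55), Fosb at -0.32 (adjusted p = 0.43), Egr3 at 0.20 (adjusted p = 0.70) and Nr4a1 at 0.42 (adjusted p = 0.35).

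The order of the 4 groups differed between genes. Fos, Egr1 and Nr4a3 were highest in GFP lymph nodes, and the other 3 groups overlapped from one to the next. Fos averaged 6.47 ± 0.11 in oncogenic Vav1 spleens (SD, n = 4), 6.00 ± 0.15 in oncogenic Vav1 lymph nodes (n = 2), 6.23 ± 0.25 in GFP spleens (n = 2) and 7.66 ± 0.24 in GFP lymph nodes (n = 2). Fosb was also highest in GFP lymph nodes, then in GFP spleens, with both oncogenic Vav1 groups lowest and overlapping. For Jun and Junb the GFP lymph nodes were highest on average, the oncogenic Vav1 spleens next to them, and the GFP spleens lowest, and the oncogenic Vav1 lymph nodes reached from near the GFP spleens up to the oncogenic Vav1 spleens. Nr4a2 was highest in oncogenic Vav1 spleens, then in oncogenic Vav1 lymph nodes, which overlapped them, then in GFP lymph nodes and in GFP spleens. Its averages were 7.53 ± 0.19 in oncogenic Vav1 spleens (SD, n = 4), 7.10 ± 0.56 in oncogenic Vav1 lymph nodes (n = 2), 6.36 ± 0.11 in GFP lymph nodes (n = 2) and 5.53 ± 0.83 in GFP spleens (n = 2). Egr3 was highest in GFP spleens, then in GFP lymph nodes, with both oncogenic Vav1 groups lowest and overlapping. Nr4a1 was highest in GFP spleens, and the other 3 groups overlapped. For Egr2 the oncogenic Vav1 spleens lay just above the GFP lymph nodes, which overlapped the GFP spleens, and the oncogenic Vav1 lymph nodes spanned all of them.

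Lymph node was also set against spleen within each construct. Within GFP arrays, 4 of the 10 genes passed and all 4 were higher in lymph node, where 17.7% of all genes passed and 12.5% were higher. Lymph node exceeded spleen for Egr1 by 1.54 (SE 0.23, adjusted p = 0.0011), Fos by 1.43 (SE 0.18, adjusted p = 0.00041), Jun by 1.40 (SE 0.31, adjusted p = 0.011) and Junb by 0.93 (SE 0.25, adjusted p = 0.028). This fit was chosen after the data were seen and carried no animal block, although 3 animals gave both tissues. These were CTL2 with GFP, and ONCO2 and ONCO3 with oncogenic Vav1. The GFP contrast shares its GFP lymph node arrays with the lymph node comparison above. Within oncogenic Vav1 arrays none of the 10 genes passed, where 0.0672% of all genes did (9 genes, against 1371 at an unadjusted p under 0.05). Over both constructs together none of the 10 passed either, where 0.164% of all genes did (22 genes, against 2104 at an unadjusted p under 0.05).

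Over both tissues together, with the animal as a random block, 3 of the 10 genes passed, where 31.7% of all genes did, and of these 1 rose and 2 fell, against 17.4% and 14.3% of all genes. Nr4a2 was higher with oncogenic Vav1 by 1.36 (SE 0.27, adjusted p = 0.0038), Egr3 lower by a change of -0.81 (SE 0.12, adjusted p = 0.00086) and Fosb lower by a change of -0.58 (SE 0.10, adjusted p = 0.0022). All 3 passed on leaving out any array. The block correlation of this model was negative, at -0.35. Without the block 2963 of all genes passed, against 4247 with it, and the 3 kept their calls. The fitted change had the same sign in both tissues for these 3 genes, whereas Jun and Junb had opposite signs in spleen and lymph node and averaged 0.39 (adjusted p = 0.33) and 0.10 (adjusted p = 0.72). Fos averaged -0.65 (adjusted p = 0.075).

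Egr3 had 3 probe sets on the array. The one used, TSUnmapped00000046.mm.2, had the highest mean. The next, TSUnmapped00000048.mm.2, measured 7.36, 7.38, 7.43 and 7.57 in oncogenic Vav1 spleens, against 8.10 and 7.67 in GFP spleens, and 7.70 and 7.76 in oncogenic Vav1 lymph nodes, against 7.70 and 7.72 in GFP lymph nodes. The third, TC1400000990.mm.2, measured 5.23, 4.79, 4.80 and 5.08 in oncogenic Vav1 spleens, against 6.41 and 5.88 in GFP spleens. It had the lowest values, between 4.79 and 6.41. Its oncogenic Vav1 spleens all lay under the 40th percentile and the negative control median of their arrays. Its level there is only a bound. In lymph node it measured 5.37 and 4.95 with oncogenic Vav1, against 5.44 and 5.74 with GFP. All but 5.74 lay under the 40th percentile of their arrays. In spleen the changes were -0.86 (adjusted p = 0.0067) for the used one, -0.45 (adjusted p = 0.039) for the next and -1.17 (adjusted p = 0.0037) for the third. In lymph node the changes were -0.64 (adjusted p = 0.054), 0.02 (adjusted p = 0.95) and -0.43 (adjusted p = 0.26). The 3 probe sets thus disagreed there in size and sign, and none passed. Over both tissues they were -0.81 (adjusted p = 0.00086), -0.27 (adjusted p = 0.079) and -0.91 (adjusted p = 0.0023), so the next one did not pass. Their values on each array are drawn in the plot of the Egr3 probe sets.

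**Figure D3:**
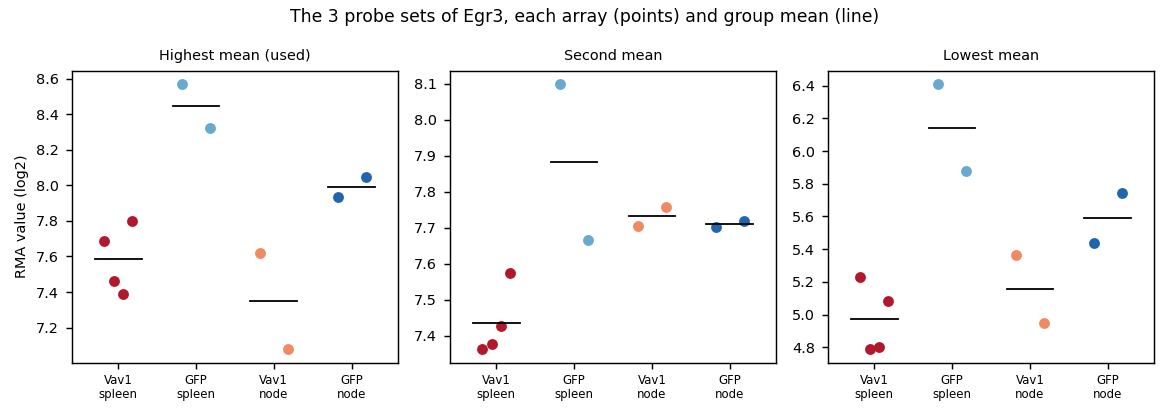
The log2 expression value (vertical axis) of the 3 Egr3 probe sets on every array (points) with the group mean (line), with oncogenic Vav1 left of GFP in each tissue. The GFP spleens are above the oncogenic Vav1 spleens in all 3.

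Lists of related genes were read beside the 10, and their counts stand against 17.1% of all genes rising and 9.77% falling in spleen, and 7.87% rising and 10.8% falling in lymph node. Among other AP-1 and partner bZIP genes (14 listed, 12 tested), 2 rose and none fell in spleen, and 2 rose and none fell in lymph node, with medians of 0.18 and 0.084. In spleen these were Batf, an AP-1 partner in T cells (1.12, adjusted p = 0.021), and Jdp2, a repressor of AP-1 (0.56, adjusted p = 0.027). In lymph node they were Mafg, a small Maf protein (1.01, adjusted p = 0.0016), and Atf4, a stress response factor (0.55, adjusted p = 0.049). On leaving out each array, Mafg always passed, while the adjusted p of Batf came to 0.12 and 0.11 with either GFP spleen dropped and to 0.057 with oncogenic Vav1 spleen replicate 1 dropped. Jdp2 passed in 5 of the 10 fits and Atf4 in 2, with adjusted p up to 0.16 and 0.23 in the others. Under the negative control covariate Batf stood at 0.12 (adjusted p = 0.84) and Jdp2 at 0.27 (adjusted p = 0.51). Jund, another Jun family gene, did not pass in either (adjusted p = 0.31 and 0.51), although its lymph node change was -0.79 (adjusted p = 0.0011) when replicate 1 of the oncogenic Vav1 group was dropped. Of the 3 genes in the list of Egr4 and the Egr corepressors, Nab1 and Nab2 rose in spleen (0.79, adjusted p = 0.015, and 0.49, adjusted p = 0.043) and none passed in lymph node. Nab2 passed in 2 of the 10 fits that leave out an array, and the adjusted p of Nab1 came to 0.14 and 0.0501 with either GFP spleen dropped. Under the covariate Nab1 stood at 0.17 (adjusted p = 0.65) and Nab2 at 0.10 (adjusted p = 0.79). Among serum response factor, its cofactors and CREB kinases (15 listed, 10 tested), 1 rose and 1 fell in spleen and 3 fell in lymph node, and Srf itself did not pass (adjusted p = 0.84 and 0.36).

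Dusp1, a phosphatase that turns off MAP kinases and is itself an immediate early gene, rose in spleen and fell in lymph node. Dusp1 measured 8.86, 8.90, 8.97 and 8.57 in oncogenic Vav1 spleens, against 7.77 and 7.85 in GFP spleens, and 8.60 and 9.00 in oncogenic Vav1 lymph nodes, against 9.84 and 9.83 in GFP lymph nodes. The groups did not overlap in either tissue. The change was 1.02 in spleen (SE 0.15, adjusted p = 0.0014) and -1.04 in lymph node (SE 0.17, adjusted p = 0.0023), and the difference between them was -2.04 (SE 0.24, adjusted p = 0.00073). It passed each of these tests on leaving out any array. Of the 12 genes in the list of feedback on MAP kinases, 1 rose and 1 fell in spleen and 5 fell in lymph node (medians 0.16 and -0.57). Rasa2, a Ras inhibitor, fell in both tissues (-0.64, adjusted p = 0.0033, and -0.59, adjusted p = 0.011), with an adjusted p of 0.12 in lymph node when GFP replicate 1 was dropped.

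Of 32 other immediate early genes tested, 8 rose and 2 fell in spleen and 3 rose and 9 fell in lymph node, with medians of 0.088 and -0.35. Pim1, a survival kinase, rose by 1.49 in both tissues (adjusted p = 0.0011 and 0.0019), and Ier3, a stress-induced survival gene, by 1.52 in spleen (adjusted p = 0.00097) and 0.76 in lymph node (adjusted p = 0.047, passing in 2 of the 10 fits that leave out an array). Rgs1, which damps chemokine receptor signalling, measured 9.91, 9.76, 9.76 and 9.76 in oncogenic Vav1 spleens, against 7.80 and 7.84 in GFP spleens, a change of 1.98 (adjusted p = 0.00086). In lymph node Rgs1 did not pass (0.33, adjusted p = 0.51). Of the 9 that fell in lymph node, Ier2 changed by -0.77 (adjusted p = 0.011) and Zfp36 by -0.96 (adjusted p = 0.035). Over 21 alternatives Ier2 kept its call in 18 and Zfp36 in 10. Among T cell receptor targets of AP-1, NFAT, Egr and Nr4a factors (25 listed, 22 tested), 7 rose and 4 fell in spleen and 1 rose and 4 fell in lymph node. Pdcd1, the PD-1 gene, rose by 2.61 in spleen (SE 0.37, adjusted p = 0.0012). Ifng, the interferon gamma gene, rose by 3.30 in spleen (adjusted p = 0.0014), with both GFP spleens under the 40th percentile of their arrays. Under the covariate Pdcd1 stood at 1.25 (adjusted p = 0.058) and Ifng at 1.71 (adjusted p = 0.082) in spleen. In lymph node Ifng rose by 2.11 (adjusted p = 0.024), and without GFP lymph node replicate 1 or 2 the adjusted p was 0.073 or 0.17. The Ifng change there was 0.94 without oncogenic Vav1 replicate 1 and 3.29 without replicate 2. In lymph node, Cd40lg, the CD40 ligand gene of helper T cells, fell by 2.06 (SE 0.18, adjusted p = 5.2e-05), both oncogenic Vav1 lymph nodes lying under the 40th percentile of their arrays, and Dgka, a brake on diacylglycerol signalling, by 1.77 (SE 0.20, adjusted p = 0.00025). In spleen Dgka fell by 1.09 (adjusted p = 0.0020), and Cd40lg was lower too, with a change of -0.71 (adjusted p = 0.0075).

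**Figure D4:**
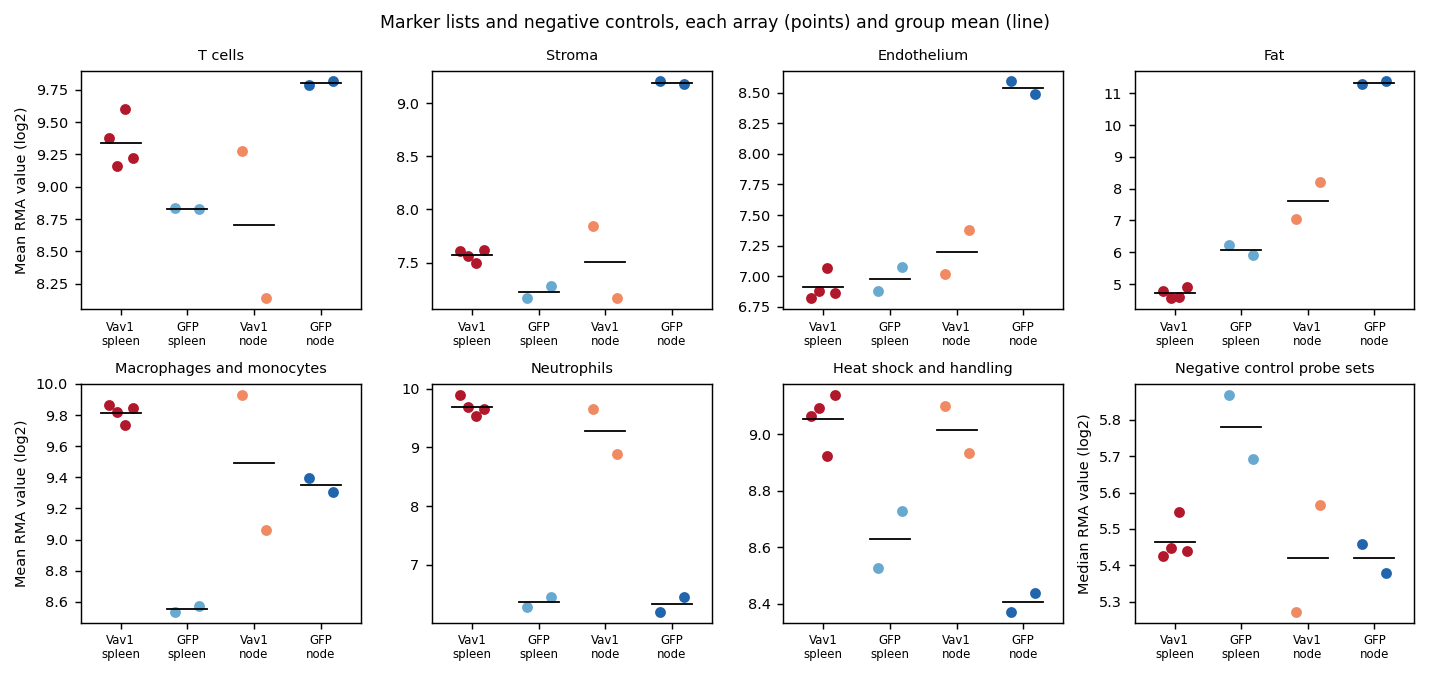
Mean log2 expression (vertical axis) of 7 lists of marker genes, and the median of the negative control probe sets, on every array, by group, with oncogenic Vav1 left of GFP in each tissue; points are arrays and lines group means. Fat, stroma and endothelium markers are highest in GFP lymph nodes, and the negative controls highest in GFP spleens.

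Marker genes of fat, stroma and endothelium also moved with the group in lymph node. The 5 fat cell markers summed to 10.35 to 11.93 in oncogenic Vav1 lymph nodes, against 14.09 to 14.10 in GFP lymph nodes, and all 5 fell. Ucp1, the brown fat heat gene, stood at 3.94 and 3.69 in oncogenic Vav1 lymph nodes, under the 40th percentile of its arrays, against 10.29 and 10.47 in GFP lymph nodes. The 6 stroma markers, of which 5 fell, summed to 10.79 to 11.78 in oncogenic Vav1 lymph nodes, against 12.92 to 12.94 in GFP lymph nodes, and the 5 endothelium markers, of which 4 fell, to 9.81 to 10.17 in oncogenic Vav1 lymph nodes, against 11.24 to 11.36 in GFP lymph nodes. Fos, Egr1 and Dusp1, which fell in these lymph nodes, were highest where these markers were highest, and the part these cells played was not tested. The T cell markers, of which 4 of 8 fell, summed to 11.15 to 12.34 in oncogenic Vav1 lymph nodes, against 12.90 to 12.92 in GFP lymph nodes. All 8 neutrophil markers rose, with sums of 12.41 to 13.06 in oncogenic Vav1 lymph nodes, against 9.47 to 9.60 in GFP lymph nodes. All 6 erythroid markers rose, with sums of 12.24 to 14.26 in oncogenic Vav1 lymph nodes, against 9.10 to 9.23 in GFP lymph nodes, and so did 3 of the 4 megakaryocyte and platelet markers, with 10.44 to 11.54 in oncogenic Vav1 lymph nodes, against 9.07 to 9.08 in GFP lymph nodes. Of the 8 heat shock genes 5 rose and 1 fell, with sums of 12.92 to 13.02 in oncogenic Vav1 lymph nodes, against 12.03 to 12.08 in GFP lymph nodes. The part of these in the lymph node results was not tested.

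By Pearson's correlation with the mean standardised value of the 10 genes over the 10 arrays, the most alike genes were Lfng (r = 0.990), Elovl5 (r = 0.986), Nfe2l1 (r = 0.985), Col1a2 (r = 0.977) and Ccpg1os (r = 0.969). These are descriptions, since arrays share animals and groups. The 10 genes did not share a pattern: their pairs correlated from -0.77 (Fosb and Nr4a2) to 0.96 (Jun and Junb). A gene close to the mean therefore need not follow each of the 10. The mean was lowest in replicate 2 of the oncogenic Vav1 lymph nodes (-1.23) and highest in GFP lymph nodes (0.73 and 0.77).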

How the data were processed

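RNA of spleen and lymph node was hybridised to 10 biotin-labelled Affymetrix arrays, per the labels' protocols. The authors deposited log2 values made by RMA with R 3.6.3 according to the submitters' processing notes; the genome build is not given in the sources used here. Of 29129 probe sets, 19572 had 1 gene symbol in the platform annotation, 0 had several and 9557 had none. A gene was represented by its probe set with the highest mean, and kept if it exceeded the 40th percentile of the array on 2 or more arrays. limma 3.58.1 in R 4.3.3 was fitted on 13393 genes with a variance trend: 4 groups with no block for the spleen and lymph node comparisons and for the tissues within each construct, and models over both tissues with the animal as a random block (statmod 1.5.0). P-values were adjusted by Benjamini-Hochberg over all genes. The methods were tested on simulated data. The alternatives tried were the filter, normalization, array weights, blocks, the median of 5222 negative control probe sets as a covariate, probe set averaging and single tissues. Each array was also left out in turn, as were both arrays of the animal ONCO3. No other animal with both tissues was left out. Genes and lists were chosen with earlier results of these data known. All 10 genes are named, and of each list up to 4 with the smallest p in spleen or lymph node could be. Jund, Fosl1, Fosl2, Egr4, Atf3, Dusp1, Ier2, Zfp36 and Vav1 were also allowed, and not all of these are reported. Srf was chosen after its values were seen. Markers serve as a check of cell types only.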

Additional observations from a re-analysis of the deposited data

Results flagged for a closer look

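The change with oncogenic Vav1 differed between lymph node and spleen, by a test of the difference itself, for Fos (-1.91), Jun (-1.95), Egr1 (-1.77) and Junb (-1.24), in log2 units of the lymph node change minus the spleen change. Over 20 alternatives of this test, Fos and Egr1 always kept their calls, Jun did in 16 and Junb in 7. In the oncogenic Vav1 spleens, the only group with enough arrays to test, no array passed Dixon's test, which sets the gap between an array and its nearest neighbour against the whole range of the group, for any of the 10 genes.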

How the results depend on the processing

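Over 163 single-gene results, 3389 values were recomputed under alternatives: 2934 kept their direction and side of the threshold, 332 lost a call, 63 gained one and 60 changed sign, each of these 60 with an adjusted p over 0.05 before and after. Counts of the 10 genes and of all genes called are given first with the value in the text. In spleen (5 of the 10, 3596 of all), no filter gave 3 of the 10, the negative control covariate gave 1 of the 10 and 916 of all, and leaving out the animal ONCO3 gave 5849 of all. In lymph node (3 and 2500), array weights gave 1264 of all, the covariate 5 of the 10, and lymph node arrays alone 1 of the 10 and 433 of all. Over both tissues (3 and 4247), the covariate gave 6 of the 10, and leaving out ONCO3 gave 6 of the 10 and 6754 of all. For the tissue difference (0 and 22), array weights gave 4 of the 10 and 2750 of all. Quantile normalization gave 5 of all, the covariate 560 and leaving out ONCO3 4. The tissue contrasts within each construct, taken from the 4-group fit to all 10 arrays, were set beside these. They gave 4 of the 10 and 2377 of all for GFP, and 9 of all for oncogenic Vav1. For the difference between tissues in the construct's change (4 and 1077), the covariate gave 2 of the 10 and leaving out ONCO3 gave 2726 of all.

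Leaving out 1 array gave 1089 to 5520 genes and 2 to 6 of the 10 in spleen, 1040 to 4650 genes and 2 to 8 of the 10 in lymph node, 2112 to 6108 genes and 3 to 6 of the 10 over both tissues, 4 to 1030 genes and 0 of the 10 for the tissue difference, and 384 to 4201 genes and 2 to 7 of the 10 for the difference of changes. Signs turned on leaving out 1 array as follows. In spleen Nr4a3 ranged from -0.30 to 0.39. In lymph node Egr2 ranged from -0.49 to 0.44, Nr4a1 from -0.21 to 0.18, Jund from -0.79 to 0.22 and Vav1 from -0.34 to 0.56. Over both tissues Egr2 ranged from -0.029 to 0.34 and Junb from -0.029 to 0.30. For the tissue difference Egr2 ranged from -0.19 to 0.27, Nr4a2 from -0.23 to 0.51 and Nr4a3 from -0.19 to 0.39. For the difference of changes Egr2 ranged from -0.79 to 0.14 and Egr3 from -0.024 to 0.51.

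Signs also turned under other settings, and the cause was not tested. With the median of 5222 negative control probe sets as a covariate, the spleen changes were Egr1 -0.16, Egr2 -0.16, Nr4a3 -0.30, Jund -0.32 and Vav1 -0.27, those over both tissues Jun -0.24, Junb -0.29 and Egr2 -0.20, the tissue differences Jun -0.21, Junb -0.098, Egr2 -0.28, Nr4a2 -0.26 and Nr4a3 -0.27, and the difference of changes of Egr2 0.21. Quantile normalization gave Nr4a3 -0.055 in spleen, Egr2 0.0075 and Nr4a1 0.032 in lymph node and Egr2 -0.028 for tissue. Centring gave Egr2 0.0084 and Nr4a1 0.023 in lymph node and Egr2 -0.025 for tissue. A changed animal block gave Egr2 -0.0071 and Nr4a3 -0.010 for tissue. Without ONCO3, lymph node changes were Egr2 0.44, Nr4a1 0.18 and Jund 0.22, and the difference of changes of Egr2 was 0.13. Within oncogenic Vav1 arrays, lymph node minus spleen was Fos -0.48, Fosb -0.033, Jun -0.55, Junb -0.32, Egr1 -0.23, Egr2 -0.15, Nr4a1 0.043, Nr4a2 -0.43 and Nr4a3 -0.43.

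Replicate numbers name different animals across groups, so they do not pair the samples. With the replicate number as a block, 3 of the 10 genes passed in spleen, 6 of the 10 and 7335 genes over both tissues, and 3 genes for the tissue difference, where Egr2 stood at -0.018. Over both tissues Nr4a2, Egr3 and Fosb kept their calls and Fos, Egr1 and Nr4a1 gained one, while Junb and Fosb lost theirs in spleen. With 2 arrays in 3 of the 4 groups, few arrays limit every comparison.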
